A study of Homo sapiens with 12 samples.

Results

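The histone cluster genes, most of them replication-dependent histone genes, were followed through RNA-seq of T47D cells, an estrogen receptor-positive line from a human breast carcinoma. They were taken as every gene of the count table whose symbol begins with HIST1H, HIST2H, HIST3H or HIST4H. The table lists 73 such genes, and the 63 with at least 1 count in any library are described here, out of 21132 genes with a count. The other 10 were listed at 0 in every library. The 63 genes comprise 6 for the linker histone H1, 14 for H2A, 19 for H2B, 12 for H3 and 12 for H4. A few of them are not typical of the family. HIST2H2BC is annotated as a pseudogene and HIST2H2BA as a long noncoding RNA, and HIST1H1T and HIST3H3 are known from the testis.

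The 12 libraries formed 4 groups of 3 replicates lettered a, b and c. All cells were held first in charcoal-stripped serum, which is depleted of steroid hormones, and then without serum. They then received vehicle, anastrozole at 10 nM, estradiol (E2) at 0.1 nM, or both agents at these doses. Anastrozole blocks aromatase, the enzyme that makes estrogens from androgens, and is not itself a steroid. The sample labels give 12 hours for the treated libraries and no time for vehicle, whereas the study's methods give a longer time. The comparisons address how each agent, and the pair together, changed transcript levels in 1 cell line. Nothing in the labels says that the replicates came from separate cultures, so the p-values measure only the spread between these libraries.

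Replication-dependent histone genes supply the core histones and H1 that package newly made DNA in S phase. Their transcripts are unusual among messenger RNAs because they have no introns and mostly no poly(A) tail. They end instead just after a short stem-loop, which is bound by stem-loop binding protein (SLBP) and cut with the help of the U7 small nuclear ribonucleoprotein. Some family members can also be transcribed past the stem-loop and receive a poly(A) tail, as is known for differentiated and non-dividing cells. Replication-independent variants, such as H3.3 (H3F3B), H2A.Z (H2AFZ) and H1.0 (H1F0), come from ordinary polyadenylated transcripts and are made outside S phase as well.

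The stem-loops of 6 members are shown first, because the kind of 3′ end bears on which members a library can hold. They were read from GRCh37 on the strand of each gene. Capitals mark the 6 paired bases on either side of the loop, and the 4 bases of the loop are in lower case. The stem-loop of HIST1H2BK lies at chr6:27114145-27114160 on the minus strand, that of HIST1H2BD at chr6:26158815-26158830 on the plus strand, and that of HIST1H1C at chr6:26055972-26055987 on the minus strand. That of HIST1H1E lies at chr6:26157323-26157338 on the plus strand, that of HIST1H4H at chr6:26285359-26285374 on the minus strand, and that of HIST1H4C at chr6:26104545-26104560 on the plus strand.
HIST1H2BK: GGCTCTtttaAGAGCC
HIST1H2BD: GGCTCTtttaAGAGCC
HIST1H1C: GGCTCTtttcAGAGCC
HIST1H1E: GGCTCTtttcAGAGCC
HIST1H4H: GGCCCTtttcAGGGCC
HIST1H4C: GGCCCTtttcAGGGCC
The H4 genes shown share 1 sequence, the H2B genes another, and the H1 genes a different one again. This does not hold for each histone as a whole. The H2B gene HIST2H2BE has the letters shown here for H1, and HIST1H1A and HIST1H1T have those shown for H2B. HIST1H1C and HIST1H1E share their letters but had 381.3 and 20.3 counts per library on average, and HIST1H4H and HIST1H4C share theirs with 61.1 and 2.92.

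The libraries had 9914253 to 17009776 reads on genes, which was 32.7% to 33.5% of all reads in the table, while 58.6% to 59.9% lay in no gene. All 8 luminal markers examined were present in every library, among them ESR1, the estrogen receptor, at 163.1 to 188.5 TMM-normalized CPM (read counts per 1e+06 reads on genes, after TMM scaling of the libraries). Of 8 markers of other cell types, the leukocyte gene PTPRC and 5 others had at most 3 counts in any library. The collagen gene COL1A1, at 80.0 to 99.9 CPM, and the smooth muscle myosin gene MYH11, at 15.03 to 17.97 CPM, were exceptions. The summed level of the 8 genes was 108.5 to 113.2 CPM in vehicle, 102.1 to 109.6 in anastrozole, 98.1 to 106.5 in E2 and 109.8 to 117 in the combination. Its part in the results on the histone genes was not tested. In bulk RNA, fewer cells making a transcript and less of it per cell cannot be told apart.

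The reads of the histone genes were concentrated in a few members. Together the 63 genes had 303.5 CPM as a mean of the 12 libraries, and the 12 with the highest CPM held 88.0% of it. HIST1H2BK, which encodes an H2B protein, alone held 35.7%, HIST1H2BD, another H2B gene, held 10.8%, and HIST1H1C, which encodes the linker histone H1.2, held 9.35%. Only 7 members reached a mean of 10 CPM, 20 lay between 1 and 10 CPM, and 36 lay below 1 CPM. A count of 3, the least that was treated as detection, corresponded to 0.177 to 0.303 CPM depending on the library. Between 38 and 44 members reached 3 counts in a given library, 30 did so in every library, and 7 in none.

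**Figure D1:**
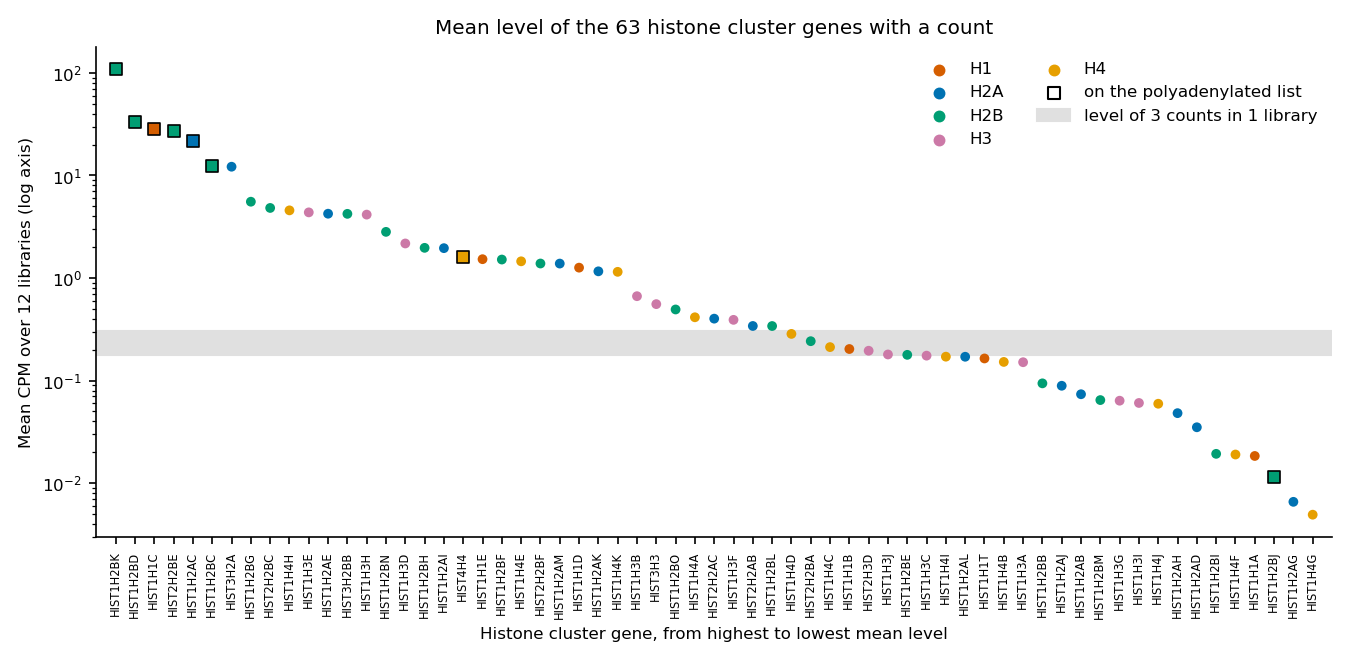
Mean TMM-normalized CPM of the 63 histone cluster genes over 12 libraries, on a log axis, from the highest to the lowest, with colours for the histone and squares for the 8 genes listed as having known polyadenylated transcripts. HIST1H2BK stood at 108.5 CPM, and 36 genes lay below 1 CPM, many of them at or under the grey band, which spans the level of 3 counts in the different libraries.

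Per kilobase of annotated exon, which allows levels of different genes to be compared, HIST1H2BK was again highest, at 219.1 CPM per kb. HIST1H1C followed at 38.8, HIST1H2BD at 38.2, HIST1H2AC at 13.1 and HIST2H2BE at 12.3 CPM per kb. The pseudogene HIST2H2BC had 8.31, the H2A genes HIST1H2AE and HIST3H2A had 8.20 and 6.58, and the H2B gene HIST1H2BC had 4.28 CPM per kb. The median over the 60 members with a known length was 0.762 CPM per kb, against 2.67 over 19628 genes with a count and a length. Exon length includes every annotated isoform, so members with long alternative exons are understated on this scale. A member that makes transcripts longer than its annotated exons is overstated, which may hold for HIST1H2BK, annotated with 495 bases.

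Among the histones, H2B genes took 67.5% of the CPM of the family, H2A genes 14.5%, H1 genes 10.4%, H3 genes 4.33% and H4 genes 3.32%. The nucleosome contains the 4 core histones in equal numbers, and the counted reads of their cluster genes were thus far from equal. The order also held in each group, since the lowest H2B sum of any library was 196.7 CPM and the highest sums were 48.0 CPM for H2A, 36.1 for H1, 14.5 for H3 and 12.7 for H4. The sums of H3 and H4 are not far apart and their order was not tested.

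The H1 genes differed widely among themselves. HIST1H1C had 307, 383 and 366 counts in vehicle a, b and c, 397, 315 and 369 in anastrozole, 349, 445 and 452 in E2, and 460, 359 and 374 in the combination. HIST1H1E, which encodes H1.4, had 12 to 33 counts per library, and HIST1H1D, which encodes H1.3, had 9 to 25. HIST1H1B, which encodes H1.5, had 1 to 5, the testis gene HIST1H1T 0 to 6, and HIST1H1A, which encodes H1.1, 0 to 2. Per kilobase, HIST1H1C stood at 38.8 CPM, HIST1H1E at 1.94, HIST1H1D at 1.63, HIST1H1B at 0.255, HIST1H1T at 0.227 and HIST1H1A at 0.0243. The last 3 lay at or near the level of 3 counts and are not ordered by these data, and the counts of HIST1H1E and HIST1H1D overlapped.

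Other members had few or almost no reads. HIST1H4C, an H4 gene, had 2, 4 and 2 counts in vehicle, 3, 2 and 2 in anastrozole, 2, 5 and 3 in E2, and 4, 4 and 2 in the combination. HIST1H3B, an H3.1 gene, had 2 to 14 counts per library and a mean of 0.665 CPM. HIST1H2AG, an H2A gene, had 1 count in all 12 libraries together, and HIST1H2BJ, an H2B gene that has an annotated extension, had 2. HIST1H4C and these last 2 genes lay close to or under the level of 3 counts in each library, whereas HIST1H3B lay above it in most.

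The labels name the measured molecule as polyA RNA, whereas the protocol names total RNA as the input of the library kit, and the members' levels can be set beside genes whose 3′ ends are known. The 8 histone genes with known polyadenylated transcripts were HIST1H1C, HIST1H2AC, HIST1H2BC, HIST1H2BD, HIST1H2BJ, HIST1H2BK, HIST2H2BE and HIST4H4. They held 76.7% of the CPM of the family and had a median of 12.7 CPM per kb, with HIST1H2BJ at 0.0111 and HIST4H4 at 0.651 CPM per kb as exceptions. The other 55 genes summed to 70.6 CPM as a mean of the libraries, and their median was 0.696 CPM per kb, above both of those exceptions. The list of 8 was chosen with earlier results of these data known, so this difference is a description and not a test. All of the 6 members with the highest CPM were on the list of 8, and HIST3H2A, the seventh, was not.

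The annotation gives a second view of the same question that does not use that list. GENCODE contains transcripts that reach more than 50 bases past the stem-loop for 13 of the 63 members, none that do so for 41, and 9 have no stem-loop on record here. Among the 9, none was sought for HIST1H2BF, HIST1H2BG and HIST1H4F, which had no matching entry. The same holds for HIST2H2BC and HIST2H2BA, which have no annotated coding end. In the rest a search found no exact stem-loop. The median was 4.22 CPM and 2.11 CPM per kb for the 13 extended members, against 0.212 CPM and 0.523 CPM per kb for the 41. The summed levels had the opposite order, since the 41 held 52.8% of the CPM of the family, most of it in HIST1H2BK, and the 13 held 41.4%. Of the 12 members with the highest CPM, 6 were extended, namely HIST1H2BD, HIST2H2BE, HIST1H2AC, HIST1H2BC, HIST3H2A and HIST1H4H. HIST1H2BK and HIST1H1C were not extended in the annotation, although both are known to make polyadenylated transcripts. HIST1H2AE was the only other member of the 12 for which a stem-loop was found without an annotated extension, at 8.20 CPM per kb. For the H3 gene HIST1H3E no exact stem-loop was found. None was sought for the H2B pseudogene HIST2H2BC or the H2B gene HIST1H2BG, and HIST1H2BG has no entry of that name in the annotation.

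Genes of neighbouring processes with polyadenylated transcripts had higher medians per kilobase than the family as a whole. HIST1H2BK stood above every one of the variants and replication genes per kilobase, over its 495 annotated bases. In CPM it stood at 108.5, below H3F3B at 446.4, H1F0 at 354.3 and MCM4 at 305.8, but above others such as CENPA at 12.3. Of 12 replication-independent histone variants, 11 had counts, with a median of 35.0 CPM per kb. H1F0 had 160.8 CPM per kb, H2AFZ had 135, H3F3B had 72.8, H2AFV, an H2A.Z isoform, had 32.4, and H2AFY, which encodes macroH2A1, had 12.9, while H3F3C had 0.0606. H3F3A, the other H3.3 gene, was listed at 0 in every library. Whether its reads aligned to several places was not examined, so the 0 is not read as absence of its transcripts. The 39 genes of DNA replication and S phase, all with counts, had a median of 21.8 CPM per kb, with a lowest gene at 2.83, and the 15 factors of histone gene transcription and 3′ processing had a median of 7.63, below that of the 8 listed histone genes. The median histone gene outside the list of 8 was thus below every one of those 39 genes.

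RNAs that are known to lack a poly(A) tail were mostly low, with clear exceptions. Of 17 such RNAs sought, 10 are in the table and 8 had a count. RMRP, the RNA of RNase MRP, had 141 to 232 counts per library and 52.9 CPM per kb, and RPPH1, the RNA of RNase P, had 48 to 101 counts. TERC, the telomerase RNA, had 2 to 10 counts. The minor spliceosome RNA RNU6ATAC had 0 to 5 counts and RNU11 had 0 to 3, and the ribosomal entries RNA45S5 and RNA5-8S5 were listed at 0. RMRP and RPPH1 therefore stood apart from the other RNAs of this kind, whose highest count in any library was 10. RMRP has 264 exon bases and TERC 541, whereas RNU6ATAC, RNU4ATAC, RNU12 and VTRNA1-1 have 99 to 156. The part of length, and of reads aligned to several places, in these counts was not tested. All libraries carry the same labels, so the labels name no difference in library type between the 4 groups. No library labelled otherwise was available for comparison. Whether library type was the same in all 4 groups, and which of the labels describes the RNA that was sequenced, was not tested.

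**Figure D2:**
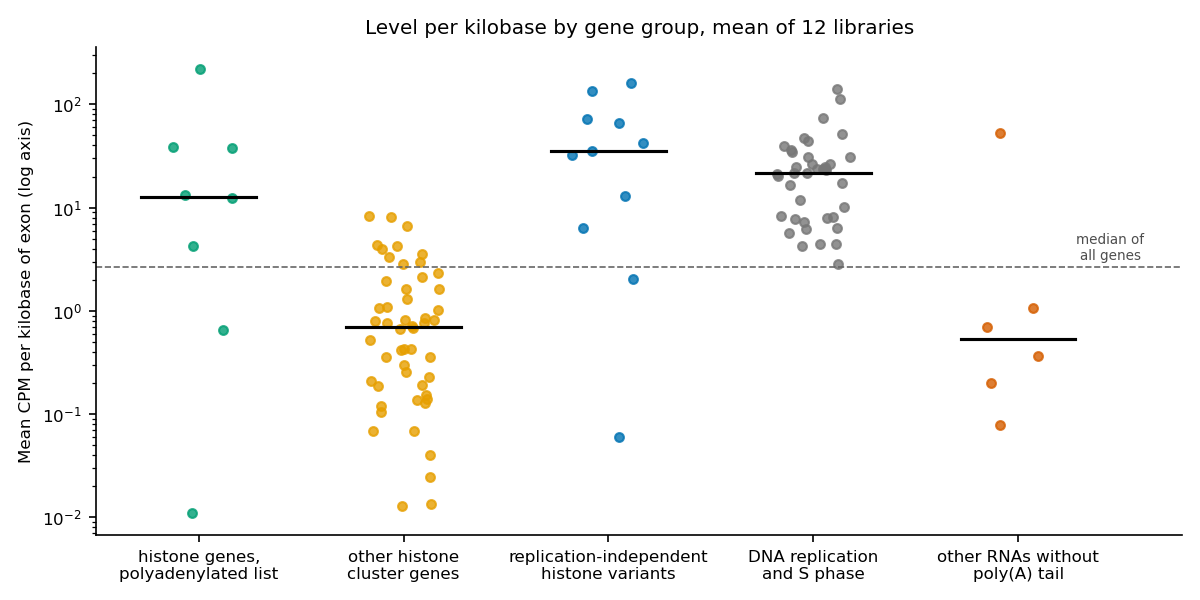
Mean CPM per kilobase of exon over 12 libraries, on a log axis, with 1 point per gene that has a length and a level above 0, a bar at the median of each group of genes, and a dashed line at the median of all genes. The histone genes outside the polyadenylated list had a median of 0.696 CPM per kb, against 12.7 for the listed histone genes, 35.0 for the variants and 21.8 for the DNA replication genes.

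Near-identical copies limit what can be counted for some members. In the deposited table, reads that align to several places are counted on no gene, and they were 6.61% to 7.40% of the reads. Of all windows of 100 bases within the transcripts of HIST2H2AA3, HIST2H2AA4, HIST2H3A, HIST2H3C, HIST2H4A and HIST2H4B, 0% occur once in GRCh37, and all 6 genes were listed at 0. Unique windows were 8.68% for the H4 gene HIST1H4K, 9.31% for HIST1H4J, 22.4% for HIST2H2BC, 38.2% for HIST1H2AJ, 41.2% for HIST1H2AI, 46.2% for HIST2H3D and 49.7% for HIST2H2BF. HIST1H2BK had 77.5% and HIST2H2BE 97.4%, and HIST1H2BD, HIST1H1C, HIST1H2AC, HIST1H2BC, HIST1H4H, HIST1H1E and HIST1H4C were unique in full. The near absence of HIST1H4C was thus not accompanied by shared sequence, while the levels of the copies may be understated. Some members also overlap other genes. HIST1H2BC lies across HFE on the opposite strand, and HIST1H4H overlaps an unnamed gene on the opposite strand. The strand setting of the counting is not given in the sources used here, so reads of such partners may not have been told apart.

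Many H2A and H2B genes stand back to back and share the short stretch between their starts, which allows the levels of neighbours to be compared. The annotation yields 11 such pairs with at most 500 bases between the starts, and 7 of the 11 carry the octamer ATTTGCAT on either strand in between. This motif is known as the binding site of POU2F1 (Oct-1), a factor of H2B transcription. The stretches between 2 pairs are shown because the neighbours had very unequal reads in the first and less unequal reads in the second. Both were read from the plus strand of GRCh37, with the octamer in capitals on the reverse strand. The first lies between HIST1H2BK and HIST1H2AH at chr6:27114635-27114884 and the second between HIST1H2BC and HIST1H2AC at chr6:26124155-26124372.
HIST1H2BK and HIST1H2AH: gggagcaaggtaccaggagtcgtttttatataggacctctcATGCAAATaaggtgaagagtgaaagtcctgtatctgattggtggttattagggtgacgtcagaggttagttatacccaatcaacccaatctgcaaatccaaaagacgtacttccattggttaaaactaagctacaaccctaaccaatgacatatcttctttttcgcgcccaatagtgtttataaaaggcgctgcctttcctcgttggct
HIST1H2BC and HIST1H2AC: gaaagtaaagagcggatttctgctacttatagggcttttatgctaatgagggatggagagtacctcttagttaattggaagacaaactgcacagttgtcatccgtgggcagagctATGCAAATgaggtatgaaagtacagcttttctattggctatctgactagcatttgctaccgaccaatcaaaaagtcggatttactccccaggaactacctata
HIST1H2BK had 17551 counts over the 12 libraries and HIST1H2AH, the H2A gene across from it, had 8. HIST2H2BE had 4460 and its neighbour HIST2H2AC had 65. HIST1H2BC and HIST1H2AC had 2002 and 3534, and per kilobase of exon they stood at 4.28 and 13.1 CPM. The pair of HIST1H2BJ and HIST1H2AG had 2 and 1, and the testis pair HIST1H2BA and HIST1H2AA had 0 on both sides, with an octamer between them as well.

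**Figure D3:**
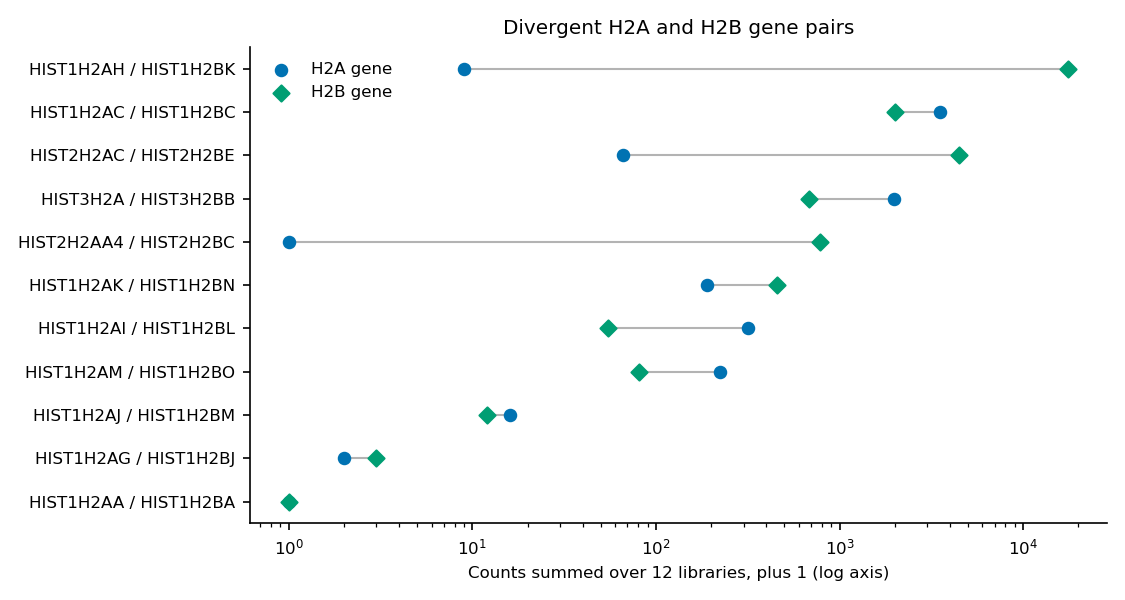
Counts of the H2A gene (circles) and the H2B gene (diamonds) of 11 divergent pairs, summed over 12 libraries with 1 added, on a log axis. The neighbours lie far apart for HIST1H2BK (17551 counts) and HIST1H2AH (8 counts) and closer together for HIST1H2BC (2002) and HIST1H2AC (3534).

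In RefSeq promoters of GRCh38.p14, from 250 bases before to 50 bases after the start, the octamer ATTTGCAT on either strand was found in 24 of the 56 members with an entry, or 42.9%, against 1.80% of 27305 promoters. It was found in 10 of 13 H2A promoters and 13 of 17 H2B promoters, in 1 of 10 for H3 and in none for H1 or H4. CCAAT on either strand was found in 85.7% of the members and 35.7% of all promoters, and TATAAA on the gene's strand in 55.4% and 7.71%. HIST1H2BK has all 3 motifs, whereas HIST1H2BD has no octamer and HIST1H4H has none of the 3. A match of letters is a description and not a measured site.

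Replicates of the histone genes differed little more than counting allows. For the 33 members with a mean of at least 5 counts, the chi-square per degree of freedom within groups, which is 1 where only sampling noise is present, had a median of 1.34 and a range of 0.366 to 2.85. It was 0.798 for HIST1H2BK, 1.18 for HIST1H2BD, 1.38 for HIST1H4H, 1.06 for HIST1H1E and 2.36 for HIST1H1C. The summed level of all members was 318, 304.1 and 300.9 CPM in vehicle a, b and c, 300.3, 313.6 and 310.7 in anastrozole, 299.2, 296.6 and 302.1 in E2, and 296, 301.9 and 299 in the combination. The means were 307.6 ± 9.08 CPM in vehicle, 308.2 ± 7.02 in anastrozole, 299.3 ± 2.72 in E2 and 299 ± 2.98 in the combination (SD, n = 3). The ranges of vehicle and E2 overlapped, as did those of vehicle and the combination.

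E2 against vehicle asked what the hormone alone did. HIST1H2BK fell with E2 and was the only histone gene that passed the threshold. It stood at 118.6, 113.1 and 115.6 CPM in vehicle a, b and c, at 100.1, 103.1 and 102.7 CPM in E2, at 108.7, 109.9 and 106.8 CPM in anastrozole, and at 108, 111.1 and 103.7 CPM in the combination. Every E2 library lay below every vehicle library, and also below every anastrozole and combination library. The mean was 115.8 ± 2.72 CPM in vehicle and 102 ± 1.61 CPM in E2 (SD, n = 3), a log2 difference of -0.18 (SE 0.04, adjusted p = 0.00059 by edgeR's quasi-likelihood test). The 1 member called is 1.59% of the 63, against 12% of all genes tested in this comparison.

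The libraries of these groups also differed in how genes of high GC content were represented. The median deviation of genes in the top quartile of GC content minus that of the bottom quartile was 0.143, 0.017 and 0.120 on the log2 scale in vehicle, and -0.108, -0.069 and -0.128 in E2. HIST1H2BK has a GC content of 58.2% over its annotated exon, against a median of 47.6% in the genes used for the trend. With each library's trend on GC content removed, its log2 difference was -0.09 and it no longer passed (adjusted p = 0.16). It passed in every fit that left out 1 library.

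HIST1H2BD showed the opposite direction and did not pass, except with the low counts filtered by filterByExpr (adjusted p = 0.049). It had 30.7, 29.1 and 30.7 CPM in vehicle, 35.4, 33.8 and 33.4 CPM in E2, 34.8, 32.5 and 37.5 CPM in anastrozole, and 30.4, 34.5 and 31.9 CPM in the combination. The E2 and the anastrozole libraries all lay above the vehicle libraries. The log2 difference from vehicle was 0.18 for E2 (SE 0.07, adjusted p = 0.058) and 0.22 for anastrozole (SE 0.08, adjusted p = 0.11). In the E2 comparison, 4 members had an unadjusted p under 0.05, against 22.9% of all genes. Over the 33 members with a mean of at least 5 counts the median log2 difference was -0.04, against 0.01 over all genes at that level, and 14 of the 33 were positive.

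Anastrozole against vehicle asked what the inhibitor did alone, in cells without serum. No histone gene passed the threshold by edgeR's quasi-likelihood test, against 3.67% of all genes tested. That share rests on 776 genes, a number that was 191 without vehicle c, 246 without anastrozole a, 287 without vehicle a, 301 without anastrozole b and 1651 without anastrozole c. By DESeq2's test, by limma-voom and by edgeR's exact test the number was also 0. At an unadjusted p under 0.05 there were 5 members, against 15.1% of all genes, all higher with anastrozole, namely HIST1H1E, HIST1H2BD, HIST1H4B, HIST1H3F and HIST1H2AE. HIST1H1E had 14, 12 and 16 counts in vehicle and 29, 25 and 19 in anastrozole, with no overlap, and its log2 difference was 0.92 (SE 0.32, adjusted p = 0.075). It passed with the GC trend removed (adjusted p = 0.042) and without anastrozole c (adjusted p = 0.028). HIST1H2AE, an H2A gene, had 46, 50 and 44 counts in vehicle and 78, 37 and 57 in anastrozole, and the normalized values of 3.74 CPM in anastrozole b and 3.42 to 3.80 CPM in vehicle overlapped. HIST1H1C had a log2 difference of 0.16 (SE 0.08, adjusted p = 0.33), and it passed with the GC trend removed and the replicate letter as a block (0.24, adjusted p = 0.040). Over the 33 members the median log2 difference was 0.02.

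Anastrozole plus E2 against vehicle asked what the combination did. HIST1H4H, which encodes histone H4, fell and was the only member past the threshold, 1.59% of the 63 against 5.04% of all genes. It had 6.31, 5.10 and 4.43 CPM in vehicle, 3.46, 3.34 and 3.79 CPM in the combination, 4.54, 5.76 and 3.67 CPM in anastrozole, and 4.97, 5.14 and 4.30 CPM in E2. All combination libraries lay below all vehicle and E2 libraries, while anastrozole c lay within their range. The log2 difference from vehicle was -0.58 (SE 0.17, adjusted p = 0.019 by edgeR). It did not pass by DESeq2's test (adjusted p = 0.19) or by limma-voom (adjusted p = 0.15). It was also lost without vehicle a (log2 difference -0.43, adjusted p = 0.25), without combination a (adjusted p = 0.064) and without combination b (adjusted p = 0.096). HIST1H2AC, an H2A gene, had a log2 difference of -0.20 (SE 0.08, adjusted p = 0.18) and HIST1H2BK one of -0.11 (SE 0.04, adjusted p = 0.17).

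The remaining comparisons set the treatments against each other. No member passed between the combination and E2, the combination and anastrozole, or anastrozole and E2 in edgeR's test, against 6.74%, 2.90% and 1.33% of all genes. The second share rests on 612 genes, a number that was 1706 without anastrozole c and 234 to 348 without any 1 of the other 5 libraries. At an unadjusted p under 0.05 there were 6, 5 and 6 of the 63 members, against 18.2%, 13.7% and 8.79% of all genes. By DESeq2's test, limma-voom and edgeR's exact test the number was likewise 0 in all 3. With the GC trend removed, HIST1H1C was lower in the combination than in anastrozole (-0.27, adjusted p = 0.014). The HIST1H4H difference between the combination and E2 was -0.45 on the log2 scale (SE 0.17, adjusted p = 0.098), with a 95% interval from -0.79 to -0.11. For HIST1H2BK, the combination and E2 differed by 0.08 on the log2 scale, with an interval from 0 to 0.15 (adjusted p = 0.27). The comparisons with vehicle share the vehicle libraries, so the values for a gene in them are not independent.

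The interaction asked whether the effect of the combination differed from the sum of the single effects on the log2 scale. HIST1H1E and HIST1H2BD passed, 3.17% of the members against 10.9% of all genes. HIST1H1E stood at 1.13, 0.912 and 1.245 CPM in vehicle, 2.09, 2.53 and 1.66 CPM in anastrozole, 1.26, 1.42 and 2.29 CPM in E2, and 1.23, 1.11 and 1.43 CPM in the combination. It was thus higher than vehicle in every anastrozole and E2 library, and within or above the vehicle range in the combination. The interaction was -1.31 on the log2 scale (SE 0.43, adjusted p = 0.024 by edgeR) and rests on 12 to 33 counts per library. It was lost in 5 of the 12 fits without 1 library, namely vehicle b, anastrozole a, anastrozole b, E2 c and combination b, with an adjusted p of 0.18 and a value of -1.02 without E2 c. For HIST1H2BD the interaction was -0.30 (SE 0.10, adjusted p = 0.040). It held in 2 of the 12 such fits, those without anastrozole b or combination b, and its adjusted p reached 0.11. With the GC trend removed it was -0.28 (adjusted p = 0.12), while HIST1H1C then passed (-0.38, adjusted p = 0.019). Without vehicle b the members that passed were HIST1H2BK and HIST1H2AH, the latter with 8 counts in all 12 libraries.

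**Figure D4:**
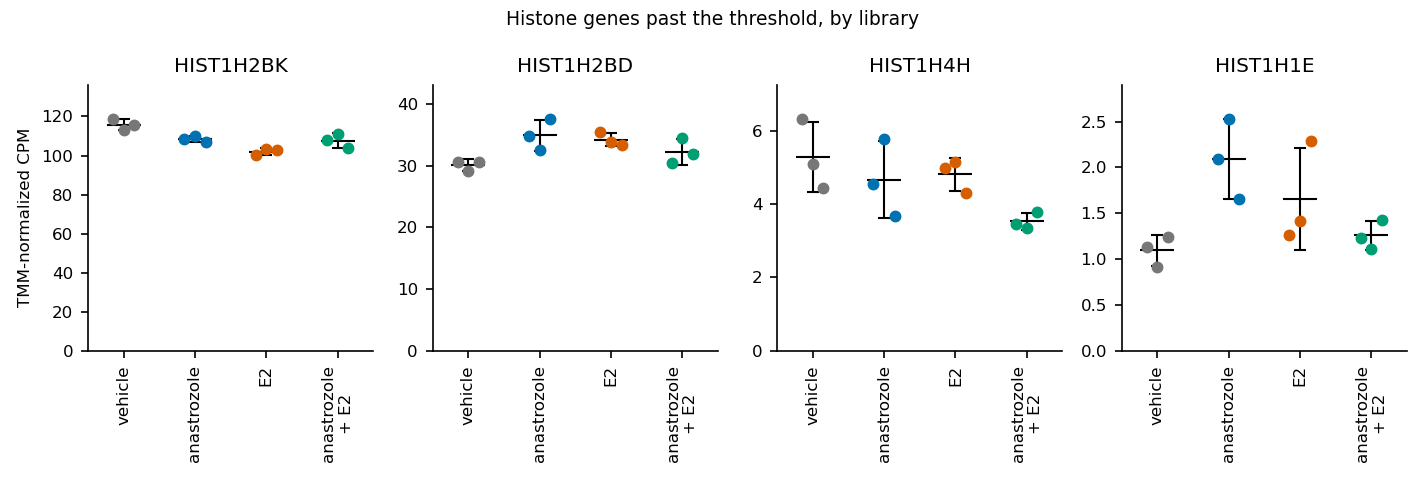
TMM-normalized CPM of the 4 histone genes past the threshold in any comparison, with 1 point per library, lines at the mean of 3 libraries and bars of 1 SD, on axes that start at 0. HIST1H2BK was lowest in E2 (102 CPM against 115.8 in vehicle), HIST1H4H was lowest in the combination, and HIST1H2BD and HIST1H1E were higher than vehicle in both single treatments.

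**Figure D5:**
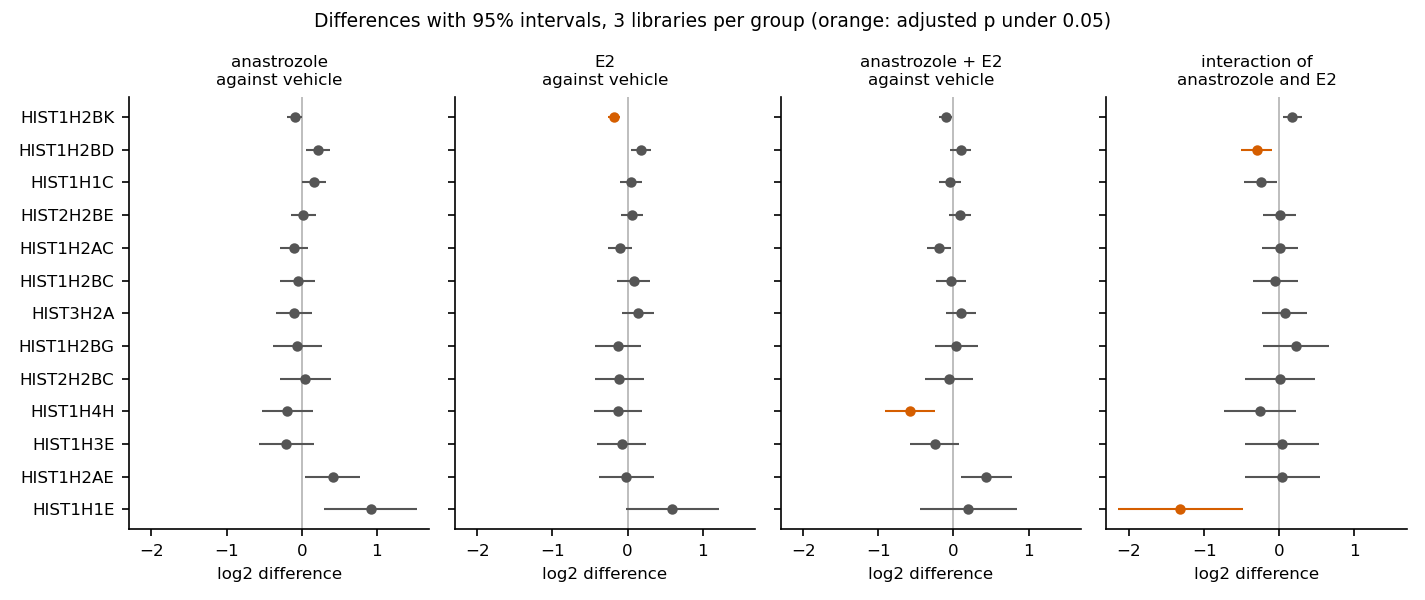
Log2 differences with 95% intervals for the 12 members of highest CPM and HIST1H1E, in 3 comparisons with vehicle and in the interaction, with orange marking adjusted p under 0.05. The intervals are narrow for HIST1H2BK (SE 0.04) and wide for HIST1H1E (SE 0.32 for anastrozole against vehicle), and only 4 of the values shown passed.

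The precision differed with the reads. Among the 12 members of highest CPM, standard errors of the log2 differences with vehicle ran from 0.04 to 0.19. In counts simulated for the comparison of E2 with vehicle, with genes of at least 20 counts changed by known folds, the test found 68% of the smallest changes simulated, whose median fitted size was 0.34 on the log2 scale, 88% of changes of 1.5-fold and 96% of changes of 2-fold, among 50 genes each. The difference of HIST1H2BK was smaller than any simulated. Only 33 members had a mean of at least 5 counts, and intervals were wide for those below it, as for HIST1H4B, an H4 gene with a mean of 1.92 counts, whose log2 difference between anastrozole and vehicle had a 95% interval from 0.64 to 4.59.

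Genes that act on histone transcripts and proteins were examined alongside, as lists. Their counts stand beside shares of all genes past the threshold of 12% for E2, 3.67% for anastrozole and 5.04% for the combination against vehicle, 6.74% and 2.90% for the combination against E2 and against anastrozole, and 10.9% in the interaction. With E2 against vehicle, 1 of 15 factors of histone gene transcription and 3′ processing rose and 2 fell, and the other 12 did not pass. NPAT, the coactivator of histone genes that is a target of cyclin E, went from 59.9 ± 2.09 to 69.4 ± 4.98 CPM (SD, n = 3), a log2 difference of 0.22 (SE 0.05, adjusted p = 0.00065 by edgeR). SRRT (ARS2), which acts with the cap-binding complex in the 3′ processing of histone transcripts, went from 94.96 ± 2.98 to 81.3 ± 4.64 CPM (log2 difference -0.22, adjusted p = 6.2e-05). SYMPK, a scaffold of the cleavage complex, had a log2 difference of -0.16 (adjusted p = 0.013). SRRT was also lower with anastrozole (-0.22, adjusted p = 0.0067), the only one of the 15 to pass in that comparison. None of the 15 passed in the combination against vehicle by edgeR's test, with 3 at an unadjusted p under 0.05, against 14.99% of all genes. Against E2, the combination had lower NPAT (-0.18, adjusted p = 0.0053) and CASP8AP2 (-0.23, adjusted p = 0.00023), the latter also known as FLASH, which acts in stem-loop cleavage, and higher SRRT (0.13, adjusted p = 0.040) and UPF1 (0.12, adjusted p = 0.045), a helicase of histone mRNA decay. SLBP was not among the calls of any comparison, at 86.7 to 100.4 CPM over the libraries. In the interaction, 5 of the 15 passed, 3 with a positive and 2 with a negative value, against 10.9% of all genes. In fits with the GC trend removed, chosen after seeing the data for these lists, SRRT was the 1 of the 3 E2 calls that still passed (-0.14, adjusted p = 0.020). The anastrozole call and the 4 calls between the combination and E2 did not pass there, and 1 of the 5 in the interaction did.

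Of 15 histone chaperones and assembly factors, 2 rose and 1 fell with E2, against 12% of all genes past the threshold, and 1 rose and 1 fell with anastrozole, against 3.67%. With E2, NAP1L1, an H2A and H2B chaperone, went from 719.8 ± 7.06 to 790.7 ± 13.6 CPM (log2 difference 0.14, adjusted p = 0.00011), RBBP7, a histone-binding subunit of several chromatin complexes, rose (0.10, adjusted p = 0.013), and CHAF1A, the large subunit of the assembly factor CAF-1, fell (-0.22, adjusted p = 0.011). With anastrozole, NAP1L1 rose (0.13, adjusted p = 0.046) and CHAF1A fell (-0.27, adjusted p = 0.021). None of the 15 passed in the combination against vehicle, again with 3 at an unadjusted p under 0.05, against the same 14.99% of all genes, and ATRX, a remodeler that works in H3.3 deposition (-0.18, adjusted p = 6.6e-05) and RBBP7 (-0.09, adjusted p = 0.042) were lower in the combination than in E2. None of these calls, 3 with E2, 2 with anastrozole and 2 between the combination and E2, passed with the GC trend removed. In the interaction 3 of the 15 passed, 1 with a positive and 2 with a negative value, against 10.9% of all genes. With the GC trend removed none of those 3 did.

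Replication-independent variants, all but 1 of them with many counts, were also tested. With E2, H3F3B (0.13, adjusted p = 0.00088) and H1F0 (0.12, adjusted p = 0.0056) rose, and H2AFJ (-0.14, adjusted p = 0.0089) and H2AFX (-0.13, adjusted p = 0.031) fell, 4 of 11 tested, against 12% of all genes. With anastrozole, H2AFX, H1FX and H2AFJ fell by 0.21, 0.20 and 0.17 on the log2 scale (adjusted p = 0.024, 0.036 and 0.036). H2AFX, which encodes H2A.X, has a stem-loop transcript as well as a polyadenylated one. In the combination the same 3 genes were higher than with E2 alone, H2AFX by 0.21 (adjusted p = 1.9e-05), H1FX by 0.18 (adjusted p = 0.0050) and H2AFJ by 0.13 (adjusted p = 0.015). They were also higher than with anastrozole alone, by 0.29, 0.30 and 0.15 (adjusted p = 0.0022, 0.00017 and 0.048). GC representation also differed between these groups, at 0.104, 0.070 and 0.076 in combination a, b and c, at -0.183, -0.094 and 0.066 in anastrozole, and below 0 in every E2 library. With the GC trend removed, H2AFJ passed in all 4 of these comparisons, with a log2 difference of -0.19 for E2 and -0.20 for anastrozole against vehicle. H2AFX against vehicle was then -0.06 with anastrozole (adjusted p = 0.65) and 0.04 with E2 (adjusted p = 0.71), where its direction turned, and 0.06 between the combination and E2 (adjusted p = 0.67), while it still passed between the combination and anastrozole (0.15, adjusted p = 0.016). H1FX passed in none of its 3 comparisons between groups named here. H3F3B and H1F0 still rose with E2. Against vehicle, the combination had higher H3F3B (0.11, adjusted p = 0.032) and H2AFY2 (0.22, adjusted p = 0.039). In the interaction H2AFJ (0.30) and H1FX (0.39) passed, 2 of the 11 tested, against 10.9% of all genes. With the GC trend removed H2AFJ still passed (0.38) and H1FX did not (0.05).

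The DNA replication and S-phase genes, which work at the time when cluster histone genes are transcribed, had small changes in both directions with E2, where 9 of 39 rose and 6 fell, against 12% of all genes past the threshold in either direction. RRM1, a subunit of ribonucleotide reductase, rose (0.16, adjusted p = 0.00022), as did RFC1, the large subunit of the clamp loader (0.17, adjusted p = 0.00032), while MCM2, a subunit of the replicative helicase, fell (-0.16, adjusted p = 0.0017), as did the thymidine kinase TK1 (-0.13, adjusted p = 0.0031). With anastrozole 6 of the 39 fell and none rose, against 3.67% of all genes, led by MCM2 at 135.6 ± 1.41 CPM in vehicle and 116.8 ± 3.11 in anastrozole (-0.21, adjusted p = 0.0027) and TK1 (-0.17, adjusted p = 0.012). In the combination against vehicle 2 fell, MCM4 (-0.12, adjusted p = 0.024) and MCM2 (-0.13, adjusted p = 0.034). Against E2, the combination had 5 lower, led by CCNE2, a cyclin E (-0.20, adjusted p = 7.1e-05). Against anastrozole it had 1 higher, CDT1 (0.21), against 2.90% of all genes. RRM2 and FEN1 passed as lower with anastrozole than with E2 (both -0.15), against 1.33% of all genes. In the interaction 12 of the 39 passed, 8 with a positive and 4 with a negative value, against 10.9% of all genes. With the GC trend removed, 4 of the 15 calls with E2 passed, RRM1 and RFC1 among them and MCM2 and TK1 not, 4 of the 6 with anastrozole passed, MCM2 among them and TK1 not, both in the combination against vehicle passed, and none of the 5 between the combination and E2 did. In those fits CDT1 did not pass, RRM2 and FEN1 did, and none of the 12 in the interaction did. The summed level of the 39 was 3998 to 4007 CPM in vehicle, 3774 to 3848 in anastrozole, 4005 to 4040 in E2 and 3875 to 3933 in the combination. Anastrozole and the combination thus lay below vehicle and E2 in this sum in every library, whereas the summed histone genes overlapped between vehicle and each treatment.

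Of the RNAs without a poly(A) tail, RMRP was lower in the combination, at 11.9 ± 1.81 CPM against 15.4 ± 2.41 in vehicle (SD, n = 3), a log2 difference of -0.38 (SE 0.10, adjusted p = 0.0059 by edgeR). It was also lower than in anastrozole (-0.37, adjusted p = 0.025), as was RPPH1 (-0.55, adjusted p = 0.020). No histone gene passed in the comparison of the combination with anastrozole, except HIST1H1C with the GC trend removed. The RNAs of this list that were tested numbered 8, and those other than RMRP and RPPH1 had at most 10 counts in a library.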

How the data were processed

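RNA-seq counts of 12 T47D libraries, 3 per group, were analysed, with groups and letters from the sample labels. The authors aligned reads to hg19 with TopHat2 2.0.14 and Bowtie2 2.2.6, per the submitters' processing notes and the methods, counted them per gene with HTSeq, and deposited whole-number counts without normalization. The version of HTSeq, its strand setting and the gene annotation are not given in the sources used here. The summary lines (reads in no gene, ambiguous reads and reads aligned to several places) stayed out of library sizes and tests.

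From the counts onward everything was computed here. Genes with 0 counts throughout were removed. For a comparison of 2 groups, their 6 libraries were scaled by TMM and tested by the robust quasi-likelihood F test of edgeR 4.0.16 (R 4.3.3), and the interaction used all 12. Tests were 2-sided, and p-values were adjusted by Benjamini-Hochberg over 21132 genes with a threshold of 0.05. Standard errors are the absolute log2 difference divided by the square root of F, and 95% intervals are 1.96 standard errors either way. CPM values are TMM-normalized. Alternatives were DESeq2 size factors or library size alone, filterByExpr, DESeq2 1.42.0, limma-voom (limma 3.58.1), edgeR's exact test, all libraries in 1 fit, the replicate letter as a block, an offset from each library's trend on exon GC content (lowess, span 0.5, genes of at least 3 log2 CPM), and leaving out each library. The GC offset was applied to the genes of the other lists after seeing the data. The test was checked on counts simulated for 19822 genes, where 6 of 182 calls were false.

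Gene models, lengths and stem-loops came from GENCODE release 44 mapped to GRCh37, whose main chromosomes hg19 shares. Of 25370 symbols, 21539 matched directly and 1499 through older symbols in RefSeq. A stem-loop was sought within 200 bases after the coding end as 6 perfectly paired bases that begin with GG, around a loop of 4 that begins with TT, and exon windows of 100 bases were searched over the whole assembly. Genes were named by rule, namely the 12 members of highest CPM, members past the threshold, all H1 genes and copies, with at most 4 genes per list and comparison beside them. HIST1H4C, HIST1H3B, HIST1H2AG and the genes listed at an unadjusted p under 0.05 were named after their values were seen. The members and lists were chosen with earlier results of these data known.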

Additional observations from a re-analysis of the deposited data

Results flagged for a closer look

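The difference between groups that drew attention was the interaction of anastrozole and E2 for 2 histone genes, tested as a term of edgeR's quasi-likelihood fit on all 12 libraries. For HIST1H1E it was -1.31 on the log2 scale (adjusted p = 0.024), with levels of 1.10 ± 0.169 CPM in vehicle, 2.09 ± 0.434 in anastrozole, 1.66 ± 0.555 in E2 and 1.26 ± 0.160 in the combination (SD, n = 3). For HIST1H2BD it was -0.30 (adjusted p = 0.040), with 30.1 ± 0.928, 34.9 ± 2.50, 34.2 ± 1.07 and 32.2 ± 2.07 CPM in the same order. The HIST1H2BD call was lost with the GC trend removed, with or without the replicate block (adjusted p up to 0.12), and held in 2 of the 12 fits without 1 library, and the HIST1H1E call was lost in 5 of those 12, with an adjusted p up to 0.18 without E2 c. Neither gene passed the threshold in a comparison of a pair of groups by edgeR's quasi-likelihood test with TMM on all genes and libraries, although HIST1H1E passed for anastrozole against vehicle with the GC trend removed or without anastrozole c, and HIST1H2BD for E2 against vehicle under filterByExpr.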

How the results depend on the processing

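Values under other settings were tallied for part of the named histone genes. Of these, 1882 kept their side of the threshold, 24 lost the call and 10 gained one, and no called value changed sign. The calls gained by HIST1H3G under limma-voom and by HIST1H2AH in the interaction without vehicle b are not among the 10. Among called genes of the other lists, 3 changed sign with the GC trend removed, H2AFX for E2 against vehicle (from -0.13 to 0.04) and, in the interaction, ATRX (from -0.17 to 0.02) and TK1 (from 0.23 to -0.001). With the GC trend removed, the number of histone genes past the threshold became 0 for E2 against vehicle, 1 for anastrozole against vehicle and 1 for the combination against anastrozole, and with the GC trend removed together with the replicate block it became 0, 2 and 1. For E2 against vehicle it was 2 under filterByExpr (HIST1H2BK and HIST1H2BD) and 2 under limma-voom (HIST1H2BK and HIST1H3G, which has a mean of 0.833 counts), and for the combination against vehicle it was 0 under DESeq2's test and 0 under limma-voom. The cause of these shifts was not tested, and a GC offset also removes true change that follows GC content. Leaving out 1 library gave 0 to 1 calls for anastrozole against vehicle, 0 to 1 for the combination against vehicle and 0 to 2 for the interaction. Without the 8 genes with polyadenylated transcripts, the summed level was 70.0 CPM in vehicle, 71.8 in anastrozole, 70.6 in E2 and 69.9 in the combination. The GC offset for the genes of the other lists was an alternative chosen after seeing the data. Over all genes, the calls numbered 776, 2537, 1065, 1424, 612 and 280 by edgeR's quasi-likelihood test for anastrozole, E2 and the combination against vehicle, the combination against E2 and against anastrozole, and anastrozole against E2, against 238, 1407, 476, 638, 222 and 110 by DESeq2, 15, 1379, 347, 451, 90 and 70 by limma-voom, 376, 2230, 879, 965, 305 and 163 by edgeR's exact test, and 613, 1593, 1273, 186, 427 and 515 with the GC trend removed, which also took the interaction from 2295 to 552. Leaving out 1 library gave 191 to 1651, 1741 to 2808, 682 to 964, 885 to 1176, 234 to 1706 and 107 to 414 calls over all genes in the same order, and 1535 to 3202 in the interaction, so the shares of all genes used for comparison move as well. Beyond the libraries named in the report, the number moved by over 1.5 times without combination b (682) or c (686) for the combination against vehicle, without E2 c (885) or combination c (935) for the combination against E2, and without E2 a (177), b (107) or c (124) or anastrozole b (134) for anastrozole against E2. Under a replicate block by letter, E2 against vehicle had 1 call, the combination against vehicle 1, the interaction 2 and the other comparisons 0, as without it. Libraries of the same letter did not deviate together (correlations from -0.20 to 0.18), so the letters were not taken as pairs. Depth limits the 30 members with a mean under 5 counts.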
